A study of Mus musculus with 8 samples.

Results

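The proteins of the small, or 40S, subunit of the cytoplasmic ribosome are encoded by single genes scattered over the chromosomes. The set described here holds 27 of them, chosen by name as the genes whose Ensembl identifiers map to the symbols Rpsa, Rps2, Rps3, Rps4x, Rps6, Rps7, Rps9, Rps10, Rps12, Rps13, Rps14, Rps15, Rps15a, Rps16, Rps18, Rps19, Rps20, Rps21, Rps23, Rps24, Rps25, Rps26, Rps27, Rps27a, Rps28, Rps29 and Fau. All 27 had an entry among the 37991 genes counted. The rule rests on gene names and uses no measured value.

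Expression was measured by RNA sequencing in Flt3- LSK cells, a fraction of mouse bone marrow enriched in blood stem cells and their earliest descendants. Samples titled Mut carry the genotype label Runx1 deficient. The WT samples are labelled wild type, and the design text gives their genotype as Runx1f/f, that is, with floxed Runx1 alleles. All mice were of the strain C57BL/6J. The labels give neither the Cre driver, the deleted exons, the age of the mice nor the number of animals behind a sample. From each sample 24000 cells were sorted, synthetic ERCC spike-in transcripts were added to the purified RNA, and both a polyA-selected (mRNA) library and a total RNA library were made. This gave 2 Mut-labelled and 2 WT libraries of each kind, 8 in all. Whether the 2 samples of a group are from different animals is not stated. A p-value therefore measures only how far these samples spread, and that spread can be technical. The stated purpose was to compare molecular properties of Runx1-deficient and normal stem cells.

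A 40S subunit carries a molecule of 18S rRNA and a copy of each of its proteins, and it reads the mRNA in the decoding centre between its head and its body. Its protein genes are transcribed at high levels in dividing cells, their mRNAs usually begin with a run of pyrimidines (a 5′ terminal oligopyrimidine tract) that places their translation under mTOR control, and in people the loss of an allele of several of them causes Diamond-Blackfan anaemia, a failure of red cell production. In mammalian genomes they have also left many processed pseudogenes, intronless copies made by reverse transcription of their mRNAs. RUNX1 is a transcription factor of blood cell development.

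Gene counts summed to between 35096252 and 37924699 per mRNA library and between 967694 and 1218437 per total RNA library, where 93.3 to 94.5% of all counts fell on rRNA. Values are given as CPM, counts scaled to library size with TMM factors, unless another unit is named, and folds are log2 values. Runx1 itself had 749 and 941 CPM in Mut-labelled mRNA libraries, against 200.003 and 208 CPM in WT mRNA libraries (log2 fold change 2.05, edgeR adjusted p = 0.00753). It was higher in the libraries labelled deficient. Counts per gene do not show whether some of its exons are missing, so each direction below rests on the labels. Marker genes moved with the groups as well. Over the mRNA libraries, 7 megakaryocyte markers summed to 1791 and 1664 CPM in Mut-labelled libraries, against 478 and 411 CPM in WT libraries. Most of this was Itga2b, the platelet integrin (1345 and 1344 CPM in Mut-labelled libraries, against 337 and 318 CPM in WT libraries). Gp5, Treml1 and Ppbp were also higher in both Mut-labelled libraries, Gp1bb was lower in both, and Pf4 and Gp9 overlapped. The 7 measured of 8 erythroid markers summed to 361 and 252 CPM in Mut-labelled libraries, against 1265 and 999.6 CPM in WT libraries, and 9 neutrophil markers to 502 and 157 CPM in Mut-labelled libraries, against 39.7 and 46.3 CPM in WT libraries. Of these, 6 of the 7 erythroid markers were lower in both Mut-labelled libraries (Hba-a1 overlapped) and 9 of 9 neutrophil markers were higher in both. In RNA from bulk cells, a change in the cells present and a change in RNA per cell cannot be told apart. Kit, the receptor that defines the K of LSK, had 884 to 1099.6 CPM in the mRNA libraries, and Flt3 transcripts were present at 57.3 and 87.6 CPM in Mut-labelled and 117.1 and 155 CPM in WT mRNA libraries. The part of such cells in the results below was not tested.

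Processed copies of these genes have entries of their own in the count table. The coding stretches shown here, 60 bases around an exon junction, are from genes whose every 50-base coding window also occurs letter for letter in transcripts of other loci; the capitals are the last base of 1 exon and the first base of the next. Each stretch was found unbroken in an intronless copy on another chromosome, so that a read across the junction matches both places. Coordinates are gene spans of the GENCODE M21 annotation on build GRCm38 and sequences are its transcripts, whereas the counts were made on build mm9.
Fau (chr19:6057844-6059524, plus strand; copy Gm9843 at chr16:76403251-76403652, minus strand): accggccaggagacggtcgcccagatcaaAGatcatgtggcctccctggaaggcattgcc
Rps6 (chr4:86854660-86857412, minus strand; copy Rps6-ps4 at chr2:75191073-75191822, minus strand): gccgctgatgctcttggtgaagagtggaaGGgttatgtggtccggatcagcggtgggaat
Rps16 (chr7:28350652-28353155, plus strand; copy Rps16-ps2 at chr5:129128077-129128517, minus strand): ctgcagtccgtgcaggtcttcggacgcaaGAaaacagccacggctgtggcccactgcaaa
Rps29 (chr12:69157722-69159186, minus strand; copy Gm14303 at chr2:172509521-172509691, minus strand): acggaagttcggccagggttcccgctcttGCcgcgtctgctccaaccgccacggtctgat

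Other copies carry base differences. Rps10 and its copy Rps10-ps1 differ at 6 coding bases, of which 3 lie in the stretch shown, and Rps26 and Rps26-ps1 differ at 2, of which 1 is shown. The differing bases are in capitals.
Rps10 (chr17:27630418-27636669, minus strand): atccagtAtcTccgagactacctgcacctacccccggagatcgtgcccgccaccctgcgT
Rps10-ps1 (chr3:95622278-95622772, plus strand): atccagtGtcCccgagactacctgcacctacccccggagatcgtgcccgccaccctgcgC
Rps26 (chr10:128624534-128626747, minus strand): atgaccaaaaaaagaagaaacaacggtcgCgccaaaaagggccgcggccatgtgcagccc
Rps26-ps1 (chr8:107439131-107439579, minus strand): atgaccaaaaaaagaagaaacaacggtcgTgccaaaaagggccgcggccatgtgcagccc

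Over the 27 genes, the share of 50-base coding windows that recur in annotated transcripts of other loci ran from 8.09% in Rps3 to 100% in 10 genes, namely Rps6, Rps12, Rps13, Rps16, Rps23, Rps27, Rps27a, Rps28, Rps29 and Fau. The same 10 genes were at 100% with windows of 100 bases. By rule, a copy shares at least 20% of a gene's windows and is a pseudogene or has a name beginning with Rps or Gm. On this rule 145 copies were found, of which 89 had an entry in the count table, and 24 of the 27 genes had at least 1 such entry. Of the 16 genes whose copies held more counts than the gene, Fau was the extreme. Its own entry had 193 and 186 counts in Mut-labelled libraries and 270 and 271 counts in WT libraries of the mRNA kind, while Gm9843 had 25587 and 21818 counts in Mut-labelled libraries and 27082 and 22083 counts in WT libraries. Fau encodes a fusion of a ubiquitin-like protein with the ribosomal protein Rps30, and 99.1% of the counts of gene and copy together stood at the copy.

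The same held for other genes with fully repeated coding parts. Rps6, the subunit protein phosphorylated by S6 kinases downstream of mTOR, had 679 and 464 counts in Mut-labelled libraries and 795 and 1627 counts in WT libraries, and Rps6-ps4 had 23301 and 19802 counts in Mut-labelled libraries and 24814 and 18682 counts in WT libraries. Rps16, which reaches into the decoding centre from the head, had 593 and 640 counts in Mut-labelled libraries and 710 and 589 counts in WT libraries, and Rps16-ps2 had 32516 and 24723 counts in Mut-labelled libraries and 35099 and 26192 counts in WT libraries. Rps29 had 201 and 235 counts in Mut-labelled libraries and 220 and 140 counts in WT libraries, and Gm14303 had 14449 and 10328 counts in Mut-labelled libraries and 16415 and 11274 counts in WT libraries. In each of these pairs every library had more counts at the copy than at the gene. Rps3, which lines the channel where mRNA enters, had no copy under the rule and held 83966 and 72191 counts in Mut-labelled libraries and 87008 and 71366 counts in WT libraries.

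**Figure D1:**
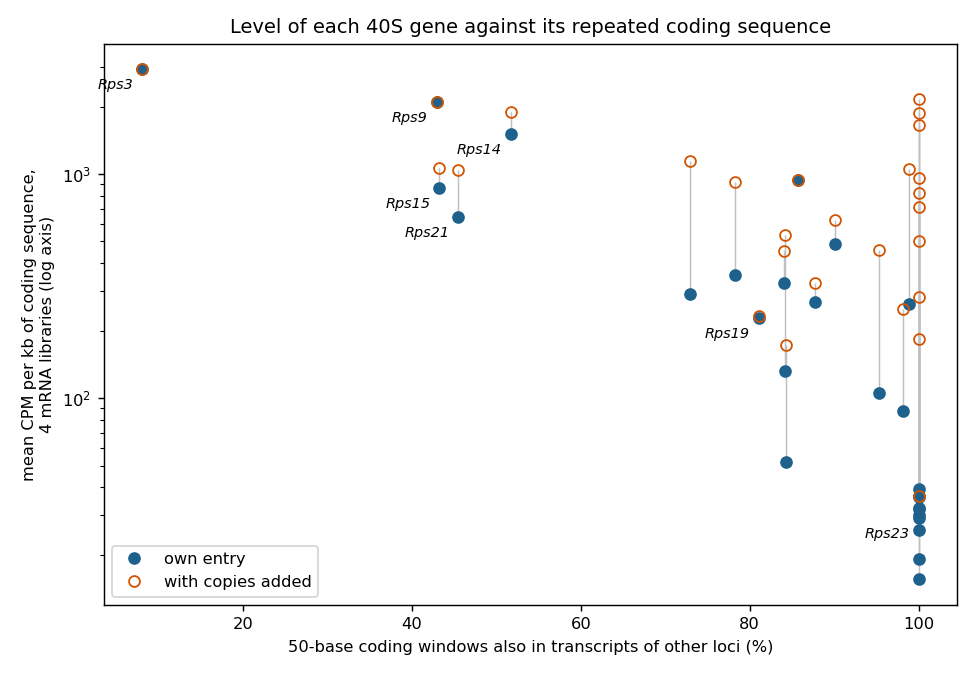
Mean level per kb of coding sequence in the 4 mRNA libraries (log axis) against the share of 50-base coding windows found in transcripts of other loci, 1 filled point per gene for its own entry and 1 open point with the counts of its copies added. The 10 genes at 100% lie between 15.5 and 39.1 CPM per kb by their own entries and between 36.5 and 2152 with copies added.

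Own entries were lower where more of the coding sequence was repeated. Per kb of coding sequence and averaged over the 4 mRNA libraries, the own entries of the 10 fully repeated genes had 15.5 to 39.1 CPM (median 31.0), whereas those of the other 17 had 51.7 to 2927 CPM (median 326). With copies added, the ranges were 36.5 to 2152 CPM (median 769) and 172 to 2927 CPM (median 923). Across the 27 genes, which share their libraries and their depth, Spearman's rho between repeated share and level per kb was -0.90 for own entries and -0.29 with copies added. The highest per kb by their own entries were Rps3 (2927), Rps9 (2103), a protein known for its effect on decoding accuracy, and Rps14 (1507), whose human gene lies in the region lost in the 5q- syndrome. The lowest were Fau (15.5), Rps27 (19.1) and Rps13 (25.7). With copies added, Rps3 (2927) was followed by Rps29 (2152), Rps9 (2103), Rps14 (1884) and Rps16 (1877). Rps23, a protein of the decoding centre, was then the lowest (36.5), and its 6 copies in the table held 20.9% of the counts of gene and copies. C330021F23Rik, a protein-coding gene that holds 65.5% of the Rps23 windows, fell outside the rule and was not added. How the authors treated reads that match several places, and which annotation they counted on, is not stated in the sources used here, so own-entry levels of repeated genes cannot be read as expression levels of the genes.

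**Figure D2:**
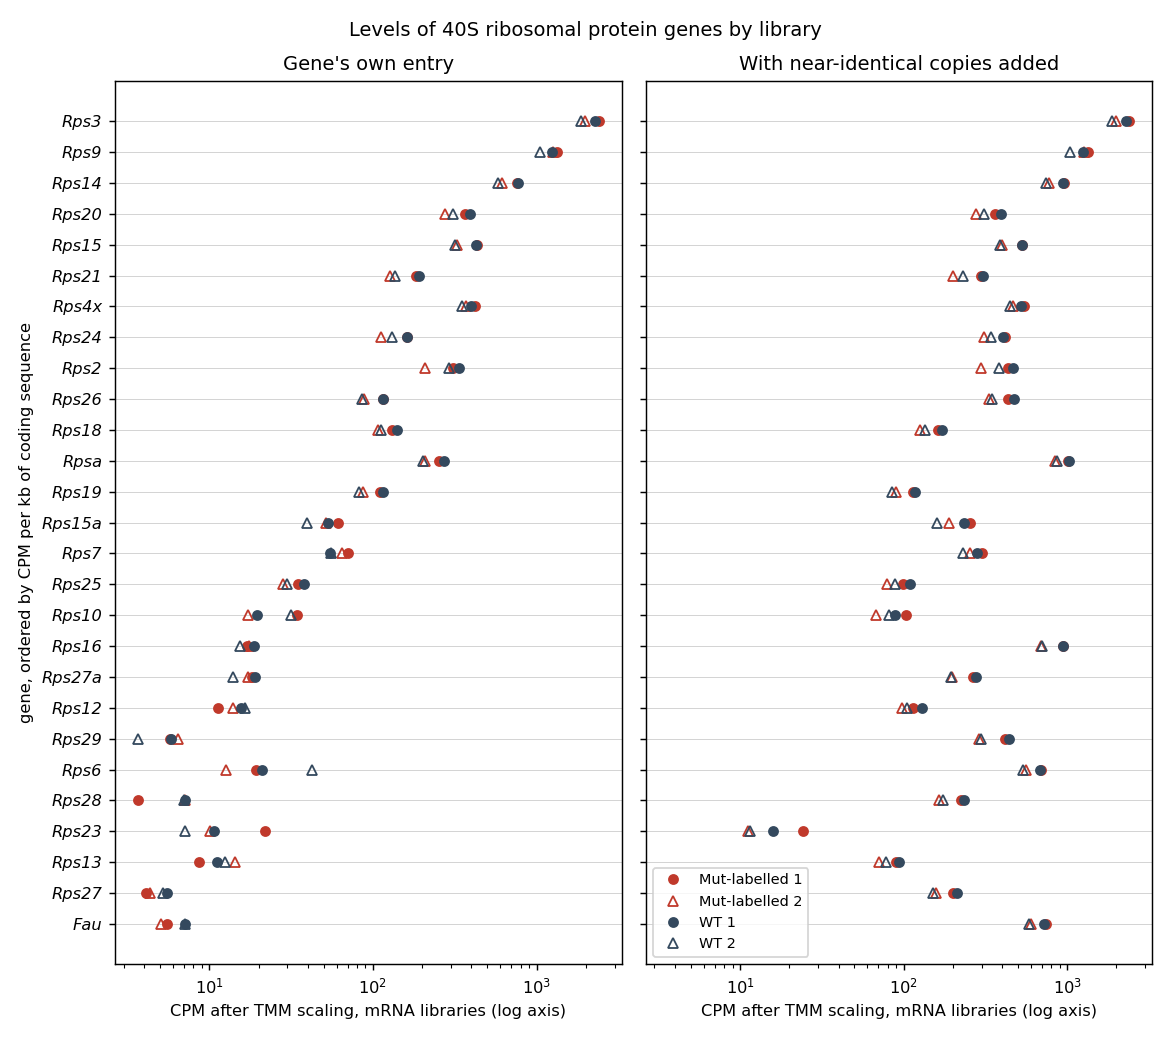
CPM of each of the 27 genes in the 4 mRNA libraries (log axes), with Mut-labelled libraries in red and WT libraries in dark blue, filled circles for libraries numbered 1 and open triangles for those numbered 2. The left panel has own entries and the right panel has copies added, and genes run from the lowest own level per kb (Fau) to the highest (Rps3).

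In the mRNA libraries, with a fit by group alone, no 40S gene passed the test for a difference between Mut-labelled and WT samples. Of 27 genes tested with edgeR's quasi-likelihood test, 0 had a Benjamini-Hochberg adjusted p under 0.05, against 3.64% of all 17128 genes tested (300 higher and 324 lower). At an unadjusted p under 0.05 there was 1 (15.7% of all genes), and DESeq2 also called 0. Their log2 fold changes had a median of 0.01, beside -0.01 over all genes, with 14 positive and 13 negative, and ranged from -0.98 to 0.84. Both Mut-labelled libraries lay above both WT libraries for 2 genes, Rps7 and Rps9 (21.4% of all genes tested), and below them for 4, Rps6, Rps12, Rps27 and Fau (23.1%).

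Rps6 had the smallest p. Its own entry was at 19.4 and 12.7 CPM in Mut-labelled libraries, against 20.9 and 42.6 CPM in WT libraries (log2 fold change -0.98 ± 0.39 SE, edgeR adjusted p = 0.307). WT library 2 stood apart, and there the entry held 7.95% of the counts of gene and copies, compared with 2.81% and 2.27% in Mut-labelled libraries and 3.08% in WT library 1. Without WT library 1 the log2 fold change of Rps6 was -1.41, and without WT library 2 it was -0.37. With copies added the groups interleaved at 690.4 and 559 CPM in Mut-labelled libraries, against 679 and 535 CPM in WT libraries, and the log2 value was 0.04 (SE 0.20, adjusted p = 0.964 in edgeR).

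Rps23 went the other way, with 21.9 and 10.1 CPM in Mut-labelled libraries, against 10.8 and 7.09 CPM in WT libraries (log2 fold change 0.84 ± 0.43 SE, edgeR adjusted p = 0.450). Here Mut-labelled library 1 stood apart, and Mut-labelled library 2 lay between the WT libraries. With copies added the log2 fold change was 0.37 (SE 0.40, adjusted p = 0.791 in edgeR). Fau, the ubiquitin-like fusion, was at 5.52 and 5.09 CPM in Mut-labelled libraries, against 7.11 and 7.09 CPM in WT libraries (log2 fold change -0.42 ± 0.26 SE, edgeR adjusted p = 0.567), without overlap between the groups. With Gm9843 added it was at 737 and 602 CPM in Mut-labelled libraries, against 721 and 585 CPM in WT libraries, which overlapped, and the log2 fold change was 0.04 (SE 0.19, adjusted p = 0.968 in edgeR). Rps12 was at 11.3 and 14.03 CPM in Mut-labelled libraries, against 15.6 and 16.5 CPM in WT libraries (log2 fold change -0.34 ± 0.23 SE, edgeR adjusted p = 0.605), again with both Mut-labelled libraries below. With copies added, its groups overlapped and its log2 fold change was -0.14 (SE 0.16, adjusted p = 0.795 in edgeR).

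Of the genes with some coding windows of their own, Rps7 had the smallest p. This body protein, needed early in 40S assembly and known to bind Mdm2, was at 70.1 and 64.5 CPM in Mut-labelled libraries, against 54.9 and 55.3 CPM in WT libraries (log2 fold change 0.29 ± 0.12 SE, edgeR adjusted p = 0.352). Its libraries did not overlap, but with the copy Gm9493 added they did, at 303 and 254 CPM in Mut-labelled libraries, against 280.3 and 232 CPM in WT libraries. Rps15a was at 61.2 and 51.95 CPM in Mut-labelled libraries, against 52.8 and 39.3 CPM in WT libraries (log2 fold change 0.30 ± 0.19 SE, edgeR adjusted p = 0.584), and the groups overlapped. Rps19, the gene most often mutated in Diamond-Blackfan anaemia, was at 111 and 87.4 CPM in Mut-labelled libraries, against 115 and 82.1 CPM in WT libraries (log2 fold change 0.01 ± 0.21 SE, edgeR adjusted p = 0.990). Its copies held 2.32% of the counts of gene and copies. Rps14 was at 759 and 619 CPM in Mut-labelled libraries, against 768 and 585 CPM in WT libraries (log2 fold change 0.03 ± 0.21 SE, edgeR adjusted p = 0.980). For both genes the 2 libraries of each group differed more from each other than the groups did.

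The other ubiquitin fusion gene, Rps27a, was at 18.3 and 17.2 CPM in Mut-labelled libraries, against 19.1 and 13.97 CPM in WT libraries (log2 fold change 0.10 ± 0.24 SE, edgeR adjusted p = 0.918), which overlapped. The genes given here without per-library folds (Rpsa, Rps3, Rps9, Rps10, Rps16, Rps20, Rps21, Rps26, Rps28 and Rps29) had log2 fold changes of -0.38 to 0.36. By position in the subunit, the 12 head genes had a median log2 fold change of 0.01 and the 15 body and platform genes one of -0.03, with 0 called in each and 0 and 1 at an unadjusted p under 0.05. The 10 genes mutated in Diamond-Blackfan anaemia in people had a median of 0.01, 6 positive and 4 negative, and 0 called, where 3.64% of all genes were called. Genes with fully repeated coding parts spread most. The median size of the log2 fold change, regardless of sign, was 0.35 over those 10 and 0.08 over the other 17, and with copies added it was 0.05 and 0.09. With copies added 0 of 27 genes were called (3.66% of all genes) and 0 had an unadjusted p under 0.05 in edgeR, and the widest log2 fold changes left were 0.37 in Rps23 and -0.21 in Rps2.

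**Figure D3:**
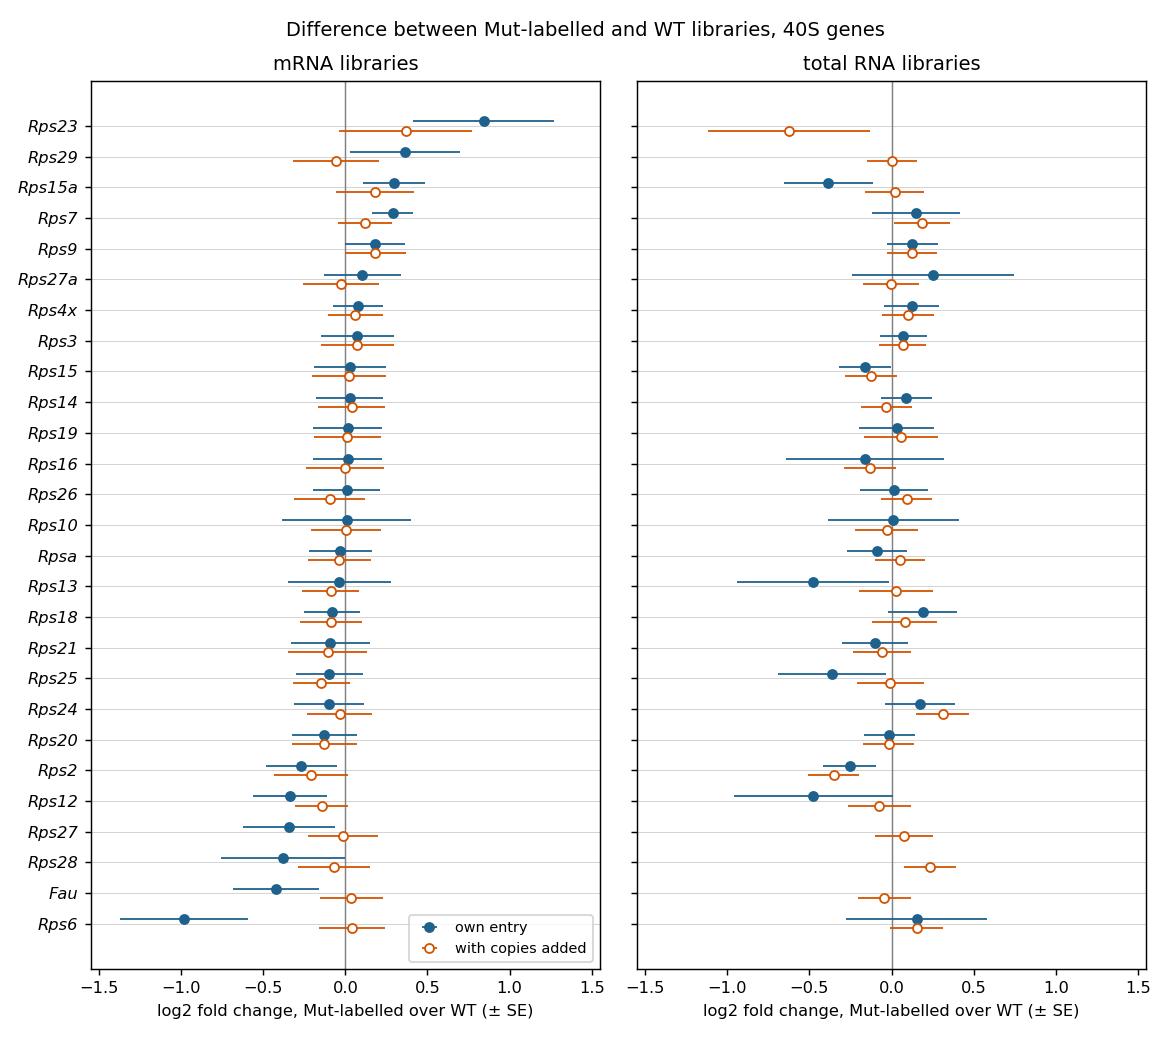
Log2 fold change of Mut-labelled over WT libraries with its SE for each of the 27 genes, in mRNA libraries (left) and total RNA libraries (right), by own entries (filled) and with copies added (open). In the mRNA panel Rps6 stands at 0.04 with copies added and at -0.98 by its own entry, and the 5 genes without a filled point in the right panel had too few counts to be tested.

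In the total RNA libraries 22 of the 27 genes had enough counts to be tested, and Rps23, Rps27, Rps28, Rps29 and Fau did not, all of them with fully repeated coding parts. Of the 22, 0 were called, against 4.22% of 10546 genes (268 higher and 177 lower), and 0 had an unadjusted p under 0.05, against 14.8%. DESeq2 called 0 as well. Rps7, which like Rps9 lay above in both kinds by its own entry, was at 46.3 and 46.9 CPM in Mut-labelled libraries, against 38.95 and 45.2 CPM in WT libraries (log2 fold change 0.15 ± 0.27 SE, edgeR adjusted p = 0.874). Rps9 had no copy in the count table, so its values stayed the same with copies added. Rps19 was at 81.9 and 107 CPM in Mut-labelled libraries, against 113 and 73.3 CPM in WT libraries, and Rps27a was at 18.3 and 11.7 CPM in Mut-labelled libraries, against 7.79 and 17.1 CPM in WT libraries, both with overlap. Rps27a rested there on 8 to 17 counts per library. Fau was at 8.62 and 5.87 CPM in Mut-labelled libraries, against 1.95 and 10.04 CPM in WT libraries, where WT library 1 had 2 counts. The median log2 fold change of the 22 was 0.01, beside -0.0017 over all genes, with 12 positive and 10 negative. Of all 27, 5 had both Mut-labelled libraries above both WT libraries (Rps3, Rps7, Rps9, Rps18 and Rps29; 22.5% of genes tested) and 3 had them below (Rps2, Rps23 and Rps25; 21.4%). Rps29 rested there on 4 to 10 counts per library. Rps2, which lines the mRNA entry channel, had the smallest p, at 204 and 193 CPM in Mut-labelled libraries, against 258 and 215 CPM in WT libraries (log2 fold change -0.26 ± 0.16 SE, edgeR adjusted p = 0.528). For Rps2 both Mut-labelled libraries were the lower ones. In the mRNA libraries it was at 310.3 and 209.6 CPM in Mut-labelled libraries, against 336 and 291 CPM in WT libraries (log2 fold change -0.27 ± 0.22 SE, edgeR adjusted p = 0.687), with an overlap.

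Rps15a, at 46.3 and 53.6 CPM in Mut-labelled libraries, against 82.8 and 48.2 CPM in WT libraries (log2 fold change -0.38 ± 0.27 SE, edgeR adjusted p = 0.580), had by its own entry the opposite sign to that in mRNA libraries, and WT library 1 was the highest. With copies added, its total RNA log2 ratios of Mut-labelled over WT were -0.17 between libraries numbered 1 and 0.26 between those numbered 2. The labels do not say that these numbers pair samples, so here and below such ratios depend on the pairing taken. Rps25, a head protein used by viral internal ribosome entry sites, was at 21.6 and 24.3 CPM in Mut-labelled libraries, against 31.2 and 28.1 CPM in WT libraries (log2 fold change -0.36 ± 0.33 SE, edgeR adjusted p = 0.695). Rps15, a head protein near the decoding centre, was at 309 and 299 CPM in Mut-labelled libraries, against 377 and 303 CPM in WT libraries (log2 fold change -0.16 ± 0.16 SE, edgeR adjusted p = 0.728). Rps12 and Rps13 rested on 8 to 27 counts per library. Rps12 was at 11.9 and 14.2 CPM in Mut-labelled libraries, against 9.74 and 27.1 CPM in WT libraries (log2 fold change -0.48 ± 0.48 SE, edgeR adjusted p = 0.735). Rps13 was at 8.62 and 17.6 CPM in Mut-labelled libraries, against 13.6 and 24.1 CPM in WT libraries (log2 fold change -0.48 ± 0.46 SE, edgeR adjusted p = 0.715). In the mRNA libraries Rps13 was at 8.603 and 14.4 CPM in Mut-labelled libraries, against 11.2 and 12.5 CPM in WT libraries (log2 fold change -0.04 ± 0.31 SE, edgeR adjusted p = 0.981). Rps25 was there at 35.01 and 28.3 CPM in Mut-labelled libraries, against 37.8 and 29.9 CPM in WT libraries, and Rps15 was at 433 and 326 CPM in Mut-labelled libraries, against 427 and 317 CPM in WT libraries. The groups overlapped in all 3. With copies added, 0 of 27 genes were called in the total RNA libraries, against 4.1% of genes, and 1 had an unadjusted p under 0.05 in edgeR.

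An interaction term fitted to all 8 libraries asked whether mRNA and total RNA gave different ratios of Mut-labelled over WT. It called 0 of the 27 genes and 0 of 17416 genes, a share of 0%. At an unadjusted p under 0.05 there were 0 of the set and 3.94% of all genes, and DESeq2 called 18 genes, 0 of the set. Taking the mRNA and total RNA library of the same sample as a pair, 111 genes were called (0.637%) and 0 of the set. By own entries, the smallest unadjusted p-values belonged to Rps23 (interaction log2 value -1.35, SE 0.68), Rps6 (1.19, SE 0.61), Rps15a (-0.64, SE 0.36) and Rps18 (0.31, SE 0.25). Rps18, a head protein near the initiator tRNA, was at 80.8 and 80.5 CPM in Mut-labelled total RNA libraries, against 74.01 and 67.3 CPM in WT total RNA libraries and at 132 and 107 CPM in Mut-labelled mRNA libraries, against 139.7 and 113 CPM in WT mRNA libraries. Positive interaction values mean a higher Mut-labelled over WT ratio in total RNA. Rps23 was at 7.54 and 6.705 CPM in Mut-labelled total RNA libraries, against 9.74 and 11.04 CPM in WT total RNA libraries, from 7 to 11 counts each. Rps6 was at 20.5 and 15.1 CPM in Mut-labelled total RNA libraries, against 19.5 and 12.05 CPM in WT total RNA libraries, from 12 to 20 counts each. Both Mut-labelled values of Rps23 were the lower ones there, and the groups of Rps6 overlapped. With copies added, the interaction value of Rps6 was 0.16 (SE 0.26). For Rps23 with copies added, log2 ratios of Mut-labelled over WT libraries 1 and 2 were 0.61 and -0.04 in mRNA. In total RNA they were -0.25 and -0.91.

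TMM scaling sets the typical gene equal between libraries, so a change shared by most genes is lost to it. Counts per 1000 ERCC counts keep such a change. On this scale the 27 own entries summed to 816 and 1553 in Mut-labelled mRNA libraries, against 1112 and 1869 in WT mRNA libraries, and to 555 and 312 in Mut-labelled total RNA libraries, against 1079 and 730.0 in WT total RNA libraries. In total RNA both Mut-labelled sums were below both WT sums, with a mean ratio of 0.479, whereas in mRNA the groups interleaved. An exact two-sided permutation test of 2 against 2 libraries cannot go below p = 0.333, and gave 0.333 in total RNA and 0.667 in mRNA libraries. By gene, 21 of the 27 had both Mut-labelled total RNA values below both WT values and 0 had them above; the same was so for 84.1% and 0.948% of all genes tested. In mRNA libraries 0 genes of the set lay below and 1, Rps23, lay above (13% and 3.32% of all genes). Scaled by ERCC, the median log2 fold change of the set was -0.37 in mRNA libraries and -1.09 in total RNA libraries, beside -0.38 and -1.10 over all genes. None of the 27 was called under ERCC scaling in either kind of library with edgeR (0.993% and 3.54% of all genes, with 16 higher and 154 lower in mRNA and 13 higher and 360 lower in total RNA libraries). At an unadjusted p under 0.05 there were 0 in mRNA and 7 in total RNA libraries (4.82% and 37.2% of all genes).

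The ERCC share itself was uneven. It was 0.891 and 0.381% of gene counts in Mut-labelled mRNA libraries, against 0.651 and 0.313% of gene counts in WT mRNA libraries and 0.772 and 1.36% in Mut-labelled total RNA libraries, against 0.414 and 0.564% in WT total RNA libraries. Within each group, the library numbered 1 had the higher share in mRNA and the lower share in total RNA, although by their names both came from 1 sorted sample. The level of 18S rRNA, the RNA of the same subunit, was counted in total RNA libraries alone. It was 312 and 144 counts per ERCC count in Mut-labelled libraries, against 507 and 400.4 counts per ERCC count in WT libraries. Per count of the 27 genes the 18S counts were 563 and 462 in Mut-labelled libraries, against 470.0 and 548 in WT libraries, which overlapped.

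**Figure D4:**
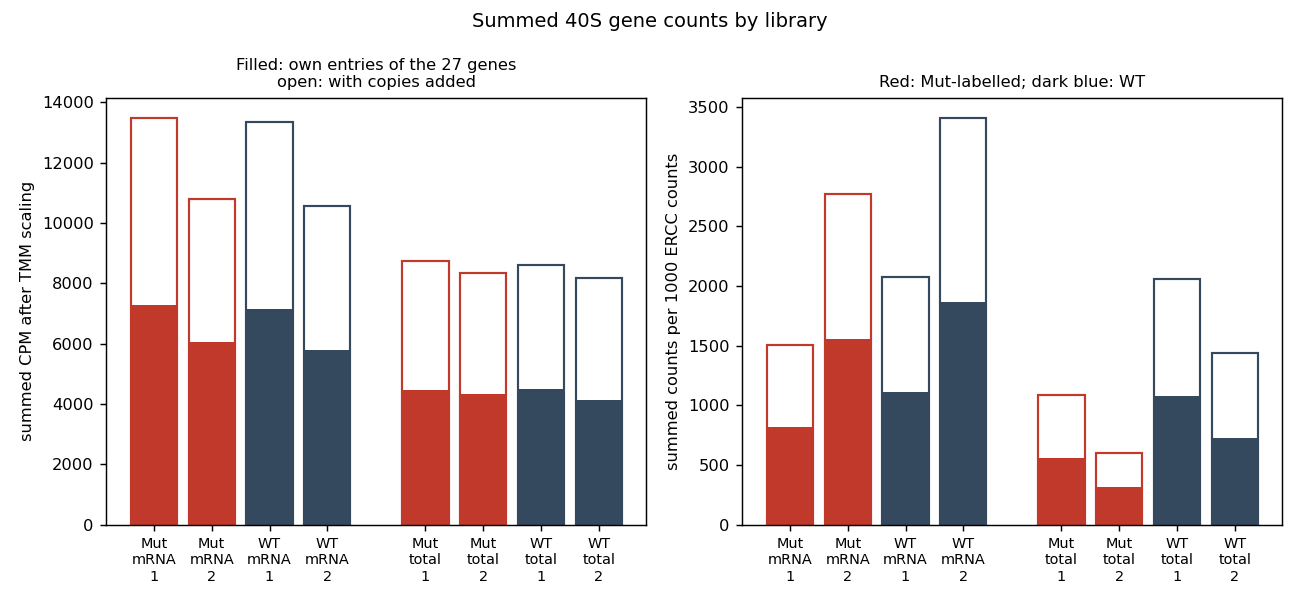
Summed counts of the 27 genes in each of the 8 libraries, as CPM (left) and per 1000 ERCC counts (right), with filled bars for own entries and open bars with copies added, and Mut-labelled libraries in red and WT libraries in dark blue. In CPM the 2 libraries of a group differ more than the groups do in mRNA, and per 1000 ERCC counts the Mut-labelled total RNA bars are the lowest.

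Within the mRNA libraries the genes shifted together, after TMM scaling, between the 2 libraries of a group. Own entries summed to 7294 and 6041 CPM in Mut-labelled libraries, against 7143 and 5804 CPM in WT libraries, and with copies added to 13469.7 and 10782 CPM in Mut-labelled libraries, against 13344 and 10577 CPM in WT libraries. By own entries, 21 of 27 genes were higher in library 1 in the Mut-labelled group (median log2 ratio 0.29) and 22 of 27 in the WT group (0.30). The 60S protein genes also summed higher in library 1, at 9182 and 7168 CPM in Mut-labelled and 9619 and 7475 CPM in WT libraries. With copies added, all 27 genes were higher in library 1 than in library 2 in the Mut-labelled group (median log2 ratio 0.37) and again all 27 in the WT group (0.34), whereas relative to ERCC both medians turned to -0.83 and -0.70. Over all genes the medians were -0.0011 and 0.0035 with TMM and -1.20 and -1.04 relative to ERCC. Between Mut-labelled and WT libraries of the same number the medians were -0.03 and -0.04. In total RNA libraries the ratios of library 1 over library 2 had medians of 0.06 (Mut-labelled, 17 of 27 positive) and 0.04 (WT, 19 of 27 positive). The sums with copies added were 8729.9 and 8349 CPM in Mut-labelled total RNA libraries, against 8592 and 8169 CPM in WT total RNA libraries.

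Transcripts of antibody-secreting cells also split the libraries of a group. The 6 measured of 7 B and plasma cell markers summed to 389 and 2069.8 CPM in Mut-labelled mRNA libraries, against 826 and 9387 CPM in WT mRNA libraries and to 281 and 1385 CPM in Mut-labelled total RNA libraries, against 431 and 5678 CPM in WT total RNA libraries. Nearly all of it was Igkc and Jchain, while Ms4a1, a B cell surface marker, was at 0 in all libraries but WT mRNA library 1. In both kinds of library and in both groups the library numbered 2 was the higher, whereas the medians of the 40S genes between numbers were larger in mRNA than in total RNA libraries. The part of these cells in the shift was not tested.

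**Figure D5:**
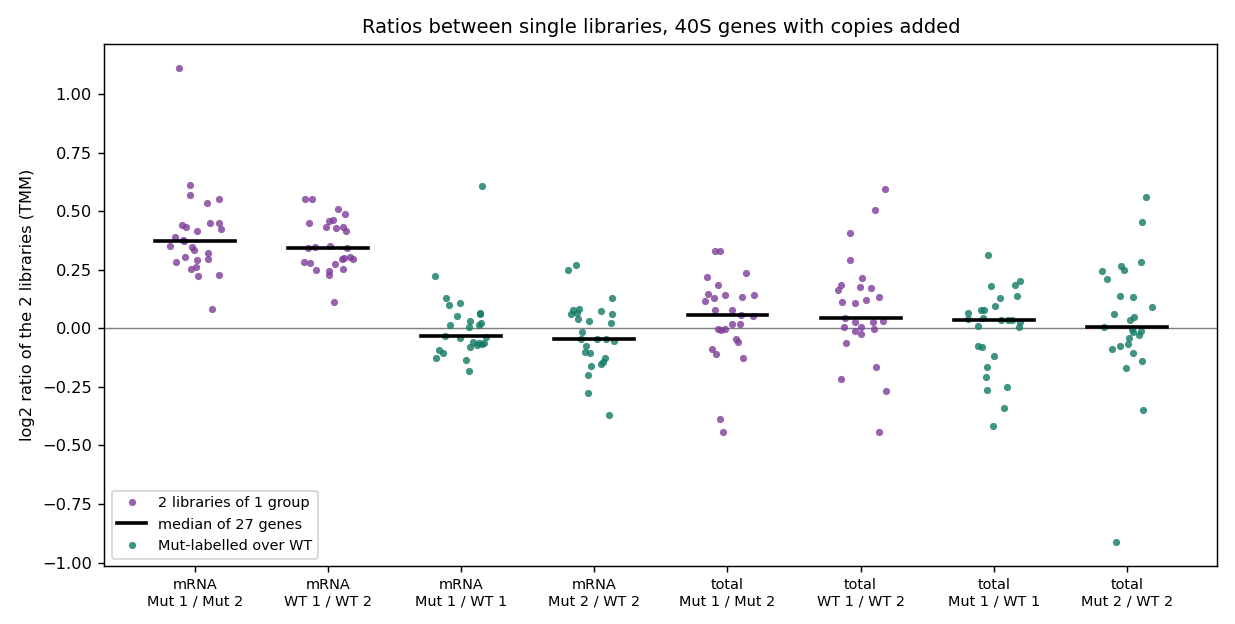
Log2 ratios between single libraries for the 27 genes with copies added, TMM scaled, with 1 point per gene and a bar at the median. In mRNA libraries all points of the 2 ratios within a group are above 0 (relative to ERCC, not drawn, all are below 0), and the ratios of Mut-labelled over WT lie around 0.

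The balance of the 27 genes with the large subunit was examined against 46 genes of 60S proteins. Further protein genes of the small subunit were left out of the ratios of the 27 genes. They held 2643 and 3375 counts in Mut-labelled total RNA libraries, against 3104 and 2838 counts in WT total RNA libraries. The 27 genes held 4147 and 5183 counts there, against 4634 and 4124 counts. The balance of the whole subunits was not tested. Counts of the 27 genes over counts of the 60S genes were 0.794 and 0.843 in Mut-labelled mRNA libraries, against 0.743 and 0.776 in WT mRNA libraries, and 0.721 and 0.772 in Mut-labelled total RNA libraries, against 0.686 and 0.701 in WT total RNA libraries. With the copies of both sets added, found by the same rule, the ratios were 0.587 and 0.582 in Mut-labelled mRNA libraries, against 0.559 and 0.557 in WT mRNA libraries, and 0.561 and 0.575 in Mut-labelled total RNA libraries, against 0.531 and 0.533 in WT total RNA libraries. In all 4 of these settings, which cover the 27 genes and not the whole small subunit, both Mut-labelled libraries were above both WT libraries. With copies added the difference was 1.05-fold and 1.07-fold. The exact two-sided permutation p was 0.333 in each, the smallest that 2 against 2 libraries allow, and the total RNA libraries are from the same samples as the mRNA libraries. The 60S genes had a median log2 fold change of -0.12 in mRNA libraries, with 38 of 46 negative and 0 called, and of -0.04 in total RNA libraries, with 25 of 41 tested negative and 0 called by edgeR. At an unadjusted p under 0.05 there were 1 and 3. Over all genes the medians were -0.01 in mRNA and -0.0017 in total RNA libraries, 8319 of 17128 and 5252 of 10546 genes were positive, 3.64% and 4.22% were called, and 15.7% and 14.8% had an unadjusted p under 0.05.

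Total RNA and polyA-selected libraries of the same samples gave different levels for some 40S genes. Of the 27 genes, 8 were called in total RNA over mRNA, against 15.1% of 17416 genes. Lower in total RNA were 7 (7.65% of all genes were), and higher was 1, Rps27 (7.49%). The lower genes were Rps4x (-0.82), Rps24 (-0.65), Rps14 (-0.64), Rps3 (-0.58), Rps18 (-0.56), Rpsa (-0.54) and Rps9 (-0.50), with SEs of 0.11 to 0.15 and edgeR adjusted p of 0.00130 to 0.0273. The median over the set was -0.20, beside -0.10 over all genes. Rps4x, encoded on the X chromosome, had 221, 193, 207 and 172 CPM in total RNA libraries (Mut-labelled 1 and 2, WT 1 and 2), against 419, 371, 400.0 and 350.2 CPM in the mRNA libraries of the same samples. Every total RNA value was below every mRNA value. These CPM were scaled within each kind of library, whereas the fit of kinds scaled all 8 libraries together.

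Rps24, another gene of Diamond-Blackfan anaemia in people, had 94.8, 79.6, 85.7 and 68.3 CPM in total RNA libraries (Mut-labelled 1 and 2, WT 1 and 2), against 162, 112, 162 and 131 CPM in the mRNA libraries of the same samples. Rps14 had 399.8, 423, 366 and 408 CPM in total RNA libraries (Mut-labelled 1 and 2, WT 1 and 2), against 759, 619, 768 and 585 CPM in the mRNA libraries of the same samples. In both genes the kinds did not overlap. Rps27, a zinc finger protein of the subunit, had 6.47, 9.22, 14.6 and 7.03 CPM in total RNA libraries (Mut-labelled 1 and 2, WT 1 and 2), against 4.12, 4.35, 5.53 and 5.21 CPM in the mRNA libraries of the same samples (log2 fold change 1.10 ± 0.33 SE, edgeR adjusted p = 0.0462), from only 6 to 15 counts per total RNA library. With its retrogene Rps27rt and no other copy added, since Rps27rt was the only one in the table, the sign turned to -0.40 (SE 0.14, adjusted p = 0.0711 in edgeR). With copies added 10 genes of the set were called, 7 of them among the 8, against 15.2% of all genes.

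These calls depended on the scaling and on single libraries. Relative to ERCC the median gene shifted to -0.80 and the set to -0.85, and 0 of the 27 were called (1.41% of all genes). Without TMM factors 9 were called, and with DESeq2's size factors 7; over all genes the split was 1304 higher and 1332 lower with TMM, 1144 and 3369 without it, 1461 and 751 with DESeq2's size factors, and 212 and 33 relative to ERCC. Pairing the libraries of 1 sample gave 9 of the set and 28.1% of all genes. Across the 8 fits that leave a library out, the log2 value of Rps4x ran from -0.90 to -0.67. That of Rps3 ran from -0.61 to -0.40 and that of Rpsa from -0.66 to -0.33. How many genes were called, in the set and over all genes, changed with the library left out.

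Genes that act with the 27 were compared in the same fits of mRNA libraries, where 3.64% of all genes were called, 15.7% had an unadjusted p under 0.05, 8319 of 17128 were positive and the median was -0.01. Of the 3 paralog genes, Rps27l (-0.04) and Rps27rt (-0.01) were near 0. Rps4l, an autosomal relative of Rps4x, had 8.203 and 7.304 CPM in Mut-labelled libraries, against 17.7 and 13.2 CPM in WT libraries (log2 fold change -0.997 ± 0.26 SE, edgeR adjusted p = 0.123). It was not called, but both Mut-labelled libraries were below both WT libraries. Of 17 dedicated assembly factors and ubiquitin enzymes of the subunit, 15 were tested, 0 were called, 0 had an unadjusted p under 0.05, 12 were negative, and their median was -0.20. The widest was Tsr2, the escort of Rps26 within the nucleus, with 37.8 and 29.5 CPM in Mut-labelled libraries, against 51.2 and 41.7 CPM in WT libraries (log2 fold change -0.46 ± 0.20 SE, edgeR adjusted p = 0.345). Nob1, the nuclease that makes the 3′ end of 18S rRNA, had 88.7 and 82.1 CPM in Mut-labelled libraries, against 106 and 103 CPM in WT libraries (log2 fold change -0.29 ± 0.12 SE, edgeR adjusted p = 0.335), and Riok3, a kinase of the cytoplasmic pre-40S particle, had 97.4 and 99.9 CPM in Mut-labelled libraries, against 87.5 and 81.3 CPM in WT libraries (log2 fold change 0.23 ± 0.12 SE, edgeR adjusted p = 0.477). Of 6 genes of the mTOR branch that controls translation of these mRNAs, 0 were called. Their median was -0.11, and Rptor, the mTORC1 scaffold, was the widest at 0.31.

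The annotated start of these genes was read for a pyrimidine tract. Windows of 30 bases around the start annotated by RefSeq on GRCm38.p6, with 10 bases before it, were at hand for 23 of the 27 genes (not Rps14, Rps20, Rps27a and Rps29). A run of at least 5 C or T from a C within 5 bases of the start was present in 12 of the 23 (52.2%), against 21.2% of the 27025 genes with a promoter sequence. Shown with the run in capitals are the genes with the longest such runs, and Rps6.
Fau (chr19:6057937-6057966, plus strand): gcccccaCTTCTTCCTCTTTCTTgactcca
Rps10 (chr17:27635225-27635254, minus strand): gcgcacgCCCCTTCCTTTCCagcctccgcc
Rps18 (chr17:33955646-33955675, minus strand): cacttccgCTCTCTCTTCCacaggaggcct
Rps6 (chr4:86857348-86857377, minus strand): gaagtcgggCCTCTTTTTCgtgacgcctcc

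In the 300 bases from 250 before to 50 after the start, the letters CCGGAA or, on the other strand, TTCCGG, the core recognised by ETS factors were found in 12 of the 23 genes (52.2%), against 16.7% of all genes. A gene was counted once, if the window of any of its annotated starts held the letters, and in Rps19 only a start other than the one read above for pyrimidines did. The letters TGTGGT or ACCACA, the core recognised by RUNX proteins, were found in 3 (Rps2, Rps12 and Rps25; 13.0%), against 18.9%. By own entries, the log2 fold changes of those 3 were -0.27, -0.34 and -0.10 in the mRNA libraries and -0.26, -0.48 and -0.36 in the total RNA libraries, none of them called. With copies added, log2 ratios of Mut-labelled over WT libraries 1 and 2 in total RNA had mixed signs for Rps12 (0.04 and -0.17) and Rps25 (-0.07 and 0.06). In both genes the groups overlapped, and the labels do not say that these numbers pair samples. For Rps2 the same ratios were -0.34 and -0.35. In mRNA libraries they were between -0.37 and -0.09 over the 3 genes. A match of letters is a description of the sequence and not a binding site.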

How the data were processed

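RNA sequencing of sorted Flt3- LSK cells gave 4 mRNA and 4 total RNA libraries. The deposited values are raw counts per gene, which the authors made with reads mapped to build mm9; TopHat, featureCounts and edgeR are named, without versions, in the submitters' processing notes. The count table held 37991 genes, 92 ERCC entries and 3 rRNA entries, and the last 2 kinds stayed out of library sizes and fits. Identifiers were paired with symbols through the GENCODE M21 annotation, which gave a symbol to 32919 genes.

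Samples were grouped by the genotype in the labels and by library kind. Folds and tests are from edgeR 4.0.16 (quasi-likelihood, TMM scaling, filterByExpr, Benjamini-Hochberg over all genes tested, called at adjusted p under 0.05) in R 4.3.3, and DESeq2 1.42.0 was an alternative. Mut-labelled and WT libraries were compared within each kind, and the interaction and the comparison of kinds used all 8 libraries. The procedure was tested on simulated counts with large changes and a fixed spread between libraries, which does not show how well small differences would be found. ERCC scaling used ERCC totals as library sizes. CPM in single libraries are counts over TMM-scaled library sizes, with no pseudocount. Sums and ratios over genes were compared by exact two-sided permutation in Python 3.11.15 with scipy 1.17.1. Same-named mRNA and total RNA libraries were taken as parts of 1 sample; their deviations from group means correlated by 0.449 in Mut-labelled and 0.389 in WT samples, and fits with the sample as a block were alternatives. Replicates differed beyond counting noise (chi-square per degree of freedom of 2.79 to 70.0 in the 4 groups), so no library was taken for a repeat deposit.

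A copy was any gene at another locus whose annotated transcripts hold at least 20% of a gene's 50-base coding windows letter for letter; the search covered annotated transcripts and not the whole genome. Adding the counts of copies was chosen after seeing the data. The genes and lists were chosen with earlier results of these data known. Values per library are given for the 6 genes with the smallest p in the mRNA fit, the 6 in the total RNA fit, the 4 in the interaction, the 4 with the widest change between kinds, and Rps6, Rps14, Rps19, Rps27a and Fau for their known roles; the entries of genes with copies serve as examples and were chosen after their values were seen. The total RNA libraries are shallow and leave 5 of the 27 genes below the filter. Results for some further 40S protein genes and 1 marker are not reported here.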

Additional observations from a re-analysis of the deposited data

How the results depend on the processing

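Among mRNA libraries, 0 of the 27 genes were called in the alternative runs that kept every library, apart from the replicate block. Across the fits that leave a library out, the log2 fold change of Rps6 ran from -1.41 to -0.37. With the replicate number as a block 3 were called (Rps23 higher, Rps2 and Rps6 lower), against 2870 of 17128 genes. The labels do not say that these numbers pair samples; deviations of same-numbered libraries correlated by 0.413 in mRNA and 0.235 in total RNA. In total RNA and in the interaction 0 were called in each alternative run. Over all genes, the 624 calls in mRNA became 170 with ERCC scaling, 1615 with DESeq2 and 2870 with the replicate block. The 445 in total RNA became 203 with DESeq2, 724 without the filter on low counts, 870 with the replicate block and 273 with all 8 libraries in 1 fit. The interaction had 18 with DESeq2, 111 with the sample that an mRNA and a total RNA library share as the block and 0 to 1 without single libraries. The median log2 fold change of the set under ERCC scaling was -0.37 in mRNA and -1.09 in total RNA.

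For total RNA over mRNA, 0 of the 27 were called with ERCC scaling and 1 to 7 without single libraries, against 8. All genes gave 245 with ERCC scaling, 4513 without TMM, 4896 with that sample block and 1019 to 2267 without single libraries, against 2636. The set's median of -0.20 became -0.85 with ERCC scaling, -0.37 without TMM and -0.28 to 0.013 without single libraries. Rps27 turned to -0.40 with copies added. Of 408 alternative values for genes named in the text, 363 kept their direction. Where a library is left out, the lone library of its group is assumed to vary like the others. The cause of these shifts was not tested. Depth limits the total RNA values, where the own entries of Rps6, Rps12, Rps13, Rps16, Rps27, Rps27a and Rps29, among others, rest on few counts.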
